A study of Homo sapiens with 18 samples.

Results

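The genes described here are 43 cytokines, chemokines, cytokine receptors and NF-kB response genes, followed through 18 libraries of MDA-MB-231 cells, an established human triple-negative breast cancer (TNBC) line. They were picked by gene symbol from a named list, and 41 of the 43 had a row among the 21411 genes of the deposited count and CPM tables. TSLP and CXCL6 were not analysed here. The 41 genes fall into 29 secreted factors (of 31 named), 4 receptors and 8 NF-kB feedback and target genes.

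Cells were grown as 3D cultures in Matrigel for 7 days from 50000 seeded cells, and messenger RNA was sequenced in 6 conditions with 3 biological replicates each. Jag1WT is the parental line. Jag1KO cells were pooled from single-cell clones after CRISPR-Cas9 editing of the Notch ligand gene JAG1 in its second exon, so that they differ from Jag1WT also in having passed through cloning. Jag1KO cells were given the Jagged1 cDNA on pcDNA3.1 (Jag1KO + rescue) or that vector without an insert (Jag1KO + ctrl), and both were kept under G418. The siCtrl and siJag1 cultures are Jag1WT cells transfected with a nontargeting siRNA or with a cocktail of siRNAs against JAG1 before seeding. The cultures held the cancer cells alone, so that ligands and receptors were measured in the same cells. In such bulk samples, fewer cells making a transcript and less of it per cell cannot be told apart.

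NF-kB is a family of transcription factors that inhibitors such as IκBα hold in the cytoplasm until signals from IL-1, TNF or other stimuli release them. In the nucleus they switch on cytokine and chemokine genes and, at the same time, the genes of their own inhibitors, which close the loop. IL-1α and IL-1β both activate this pathway and are among its targets, and MDA-MB-231 cells are known for high basal NF-kB activity and for secreting IL-6 and IL-8.

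To show the words that were searched for, the promoters of 4 of these genes are given from RefSeq (GRCh38.p14), each 300 bases from 250 before the start site to 50 from the start on, on the strand of the gene. IL6 is the secreted factor with the clearest difference, CXCL1 stands for the CXC chemokine cluster, NFKBIA is the feedback inhibitor and CXCR4 is the receptor that differed. Capitals mark the NF-kB consensus in IL6, CXCL1 and NFKBIA, and the RBPJ word TGGGAA (here on the opposite strand) in CXCR4, which had no NF-kB match. The IL6 promoter lies at chr7:22726950-22727249 (plus strand), CXCL1 at chr4:73869143-73869442 (plus), NFKBIA at chr14:35404700-35404999 (minus) and CXCR4 at chr2:136118100-136118399 (minus).
IL6: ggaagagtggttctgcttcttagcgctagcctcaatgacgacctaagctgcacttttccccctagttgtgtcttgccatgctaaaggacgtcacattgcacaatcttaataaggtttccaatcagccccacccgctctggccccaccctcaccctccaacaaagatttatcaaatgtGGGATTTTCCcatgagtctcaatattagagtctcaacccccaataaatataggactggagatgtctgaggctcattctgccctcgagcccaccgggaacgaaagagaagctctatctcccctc
CXCL1: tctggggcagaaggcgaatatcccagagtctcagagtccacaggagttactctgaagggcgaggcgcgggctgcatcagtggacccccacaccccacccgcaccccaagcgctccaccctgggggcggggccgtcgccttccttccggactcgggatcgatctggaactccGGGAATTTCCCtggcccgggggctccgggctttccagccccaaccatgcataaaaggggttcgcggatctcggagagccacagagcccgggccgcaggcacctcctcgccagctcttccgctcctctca
NFKBIA: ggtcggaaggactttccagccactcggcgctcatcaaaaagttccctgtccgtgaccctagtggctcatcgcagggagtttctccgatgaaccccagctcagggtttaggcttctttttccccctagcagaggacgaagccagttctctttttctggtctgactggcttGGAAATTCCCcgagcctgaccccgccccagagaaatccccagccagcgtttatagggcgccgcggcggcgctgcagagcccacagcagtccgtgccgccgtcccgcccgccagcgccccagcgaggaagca
CXCR4: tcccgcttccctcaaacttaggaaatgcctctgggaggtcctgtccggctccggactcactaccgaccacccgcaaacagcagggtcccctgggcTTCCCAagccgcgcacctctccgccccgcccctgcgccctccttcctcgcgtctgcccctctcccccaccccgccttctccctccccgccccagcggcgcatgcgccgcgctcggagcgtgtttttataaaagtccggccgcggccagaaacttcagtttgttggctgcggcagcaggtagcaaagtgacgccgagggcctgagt

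Of the 43 genes, 33 had a promoter in the RefSeq table. The NF-kB consensus, searched on both strands, was present in 15 of these 33 (45.5%) and in 10.8% of all 27305 promoters of the same length. It was found in 10 of 22 secreted factors, 1 of 4 receptors and 4 of 7 NF-kB feedback and target genes. CXCL1, CXCL2, CXCL3, CXCL5 and CXCL6 all carried GGGAATTTCC, between 69 and 91 bases before the start site. The RBPJ word TGGGAA, bound by the DNA-binding partner of Notch, was present in 10 of 33 (30.3%) and in 24.3% of all promoters, and in IL6 and NFKB1 it overlapped the NF-kB match. The AP-1 word TGANTCA was present in 4 of 33 (CXCL8, CXCL11, IL1A and IL11, 12.1%) and in 7.76% of all promoters. These matches describe letters in the windows and are not measured binding sites.

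Between 10330581 and 18327890 reads were counted on genes per library, so that 3 reads corresponded to 0.162 to 0.287 CPM. JAG1 itself had 432.7, 585.4 and 522.1 CPM in Jag1WT against 115.8, 205 and 148.9 in Jag1KO, and the groups did not overlap in the other comparisons either (edgeR log2 fold change 1.71 with adjusted p = 0.0163 for Jag1WT against Jag1KO, 2.22 with adjusted p = 0.0227 for the rescue and 1.68 with adjusted p = 0.111 for the siRNA, or 1.69 with adjusted p = 0.0181 with the replicate number as a block). The JAG1 call in Jag1WT against Jag1KO was kept in 2 of the 6 fits that left out 1 library each (adjusted p of at most 0.139), and in the rescue in 1 of 6 (at most 0.247). Of the cell markers, VIM (2184 to 4946 CPM), CD44, EGFR, KRT18 and AXL were present in every library, while ESR1 stayed at or below 0.136 CPM, PGR at or below 1.77 and CDH1 at or below 1.16. With ERBB2 and EPCAM, this list of 5 markers low or absent in triple-negative cells summed to 39.1 to 69.3 CPM. Most of that sum came from ERBB2, EPCAM or both, so that not all of these markers were absent. The summed level of the 8 leukocyte markers with a row was 92.97 to 217.0 CPM and was nearly all CD68 (88.9 to 208.9 CPM), while PTPRC and CD3E stayed at or below 0.202 CPM. The 5 fibroblast markers summed to 3.12 to 10.9 CPM and the 5 endothelial markers to 12.6 to 23.5 CPM, with DCN, LUM and CDH5 at or below 0.273 CPM. Jag1KO + ctrl replicate 3 differed from the other libraries of its condition (proliferation list mean 4.76 against 6.55 and 7.08). So did Jag1KO replicate 1 (4.40 against 6.28 and 6.47) and siJag1 replicate 2 (6.93 against 4.67 and 4.88). Every comparison was also fitted without each of its libraries in turn.

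In Jag1WT, the secreted factors held the highest levels per transcript length. CXCL8, the neutrophil attractant IL-8, was first with 1515 ± 124 RPKM (reads scaled by depth and gene length, mean ± SD, n = 3) and IL1B second with 818 ± 166 RPKM. Then followed CXCL2 (304 ± 146), CSF2 (253 ± 46.1), CXCL3 (201 ± 80.5), CXCL1 (190 ± 58.7), NFKBIA (171 ± 55.0) and IL1A (162 ± 45.3 RPKM), whose order is not resolved by their spread. IL6 lay much lower, at 39.5 ± 7.16 RPKM, and CXCR4 at 2.00 ± 0.273 RPKM. In all, the 41 genes took 0.437% (Jag1KO + ctrl replicate 2) to 1.62% (Jag1KO + rescue replicate 2) of the counts of a library, and CXCL8 and IL1B alone made up 28.8% to 62.0% of that share. At the other end, IL33 had 1 read in all 18 libraries together, and CXCL10, CCL2, CCL5, CXCL11, TNF and CXCL16 had 7, 10, 44, 88, 182 and 188 reads in all. These 7 genes passed the filter on low counts (above 1 CPM in at least 3 of 6 libraries) in 0 of the 5 comparisons.

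**Figure D1:**
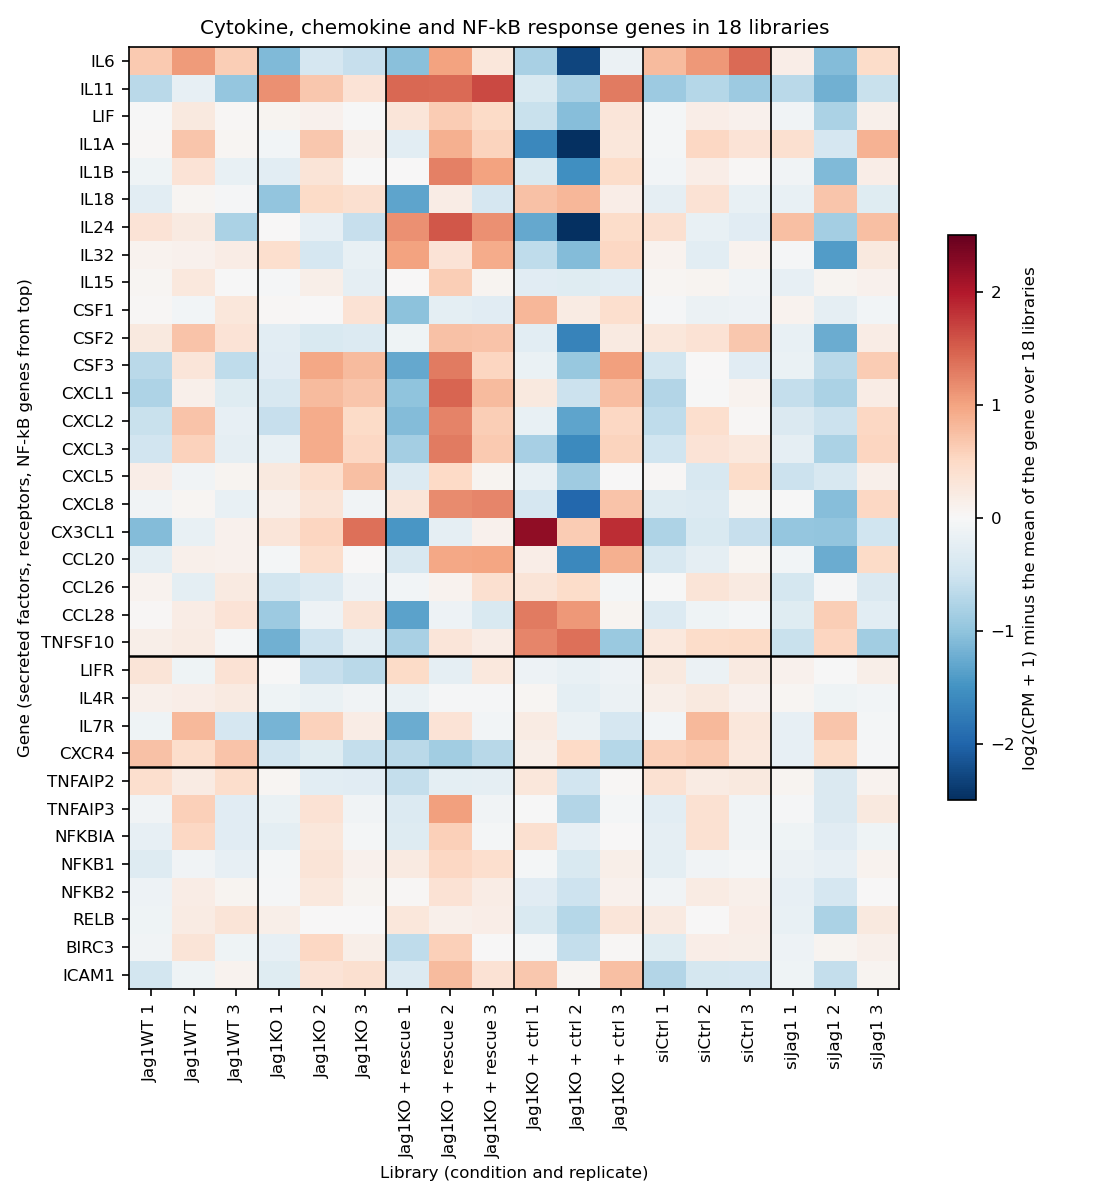
Level of 34 of the 41 genes (rows, those above the filter in Jag1WT against Jag1KO) in each of the 18 libraries (columns), as log2(CPM + 1) minus the mean of the gene over all libraries. Red is above and blue below that mean, horizontal lines separate secreted factors, receptors and NF-kB genes, and vertical lines separate the 6 conditions. Jag1KO + ctrl replicate 2 and siJag1 replicate 2 are blue for most secreted factors, and IL6 is red in every Jag1WT and siCtrl library.

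In the comparison of Jag1WT with Jag1KO, which asks what changes when JAG1 is lost, IL6 and CXCR4 were higher in Jag1WT by the edgeR quasi-likelihood test (adjusted p below 0.05 over all genes tested and a fold change above 1.5). They were the 2 genes called higher of the 34 that passed the filter, beside 0.41% of all 12928 genes tested, and 0 of the 34 were called lower, beside 0.294%. In Jag1KO + rescue against Jag1KO + ctrl, edgeR called 0 of 33 higher (beside 0.00776% of all genes) and 0 lower (beside 0%), while 10 of the 33 had an unadjusted p below 0.05 (beside 3965 of all 12894 genes, 30.8%). DESeq2 called 3 lower (beside 996 of all genes, 7.72%) and limma called 0 (beside 2 higher and 0 lower of all genes). In siCtrl against siJag1, edgeR called 0 of 33 higher (beside 0.0156%) and 0 lower (beside 0%), while 5 had an unadjusted p below 0.05 (beside 491 of all 12823 genes, 3.83%). Both DESeq2 (beside 22 higher and 3 lower of all genes) and limma (beside 0) called 0. These siRNA fits were unpaired, and edgeR with the replicate number as a block also called 0 (beside 4 higher and 0 lower of all genes). The groups did not overlap for 10 of 34 genes in Jag1WT against Jag1KO (13.8% of all genes), for 8 of 33 in the rescue (32.4%) and for 5 of 33 with the siRNA (10.5%).

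**Figure D2:**
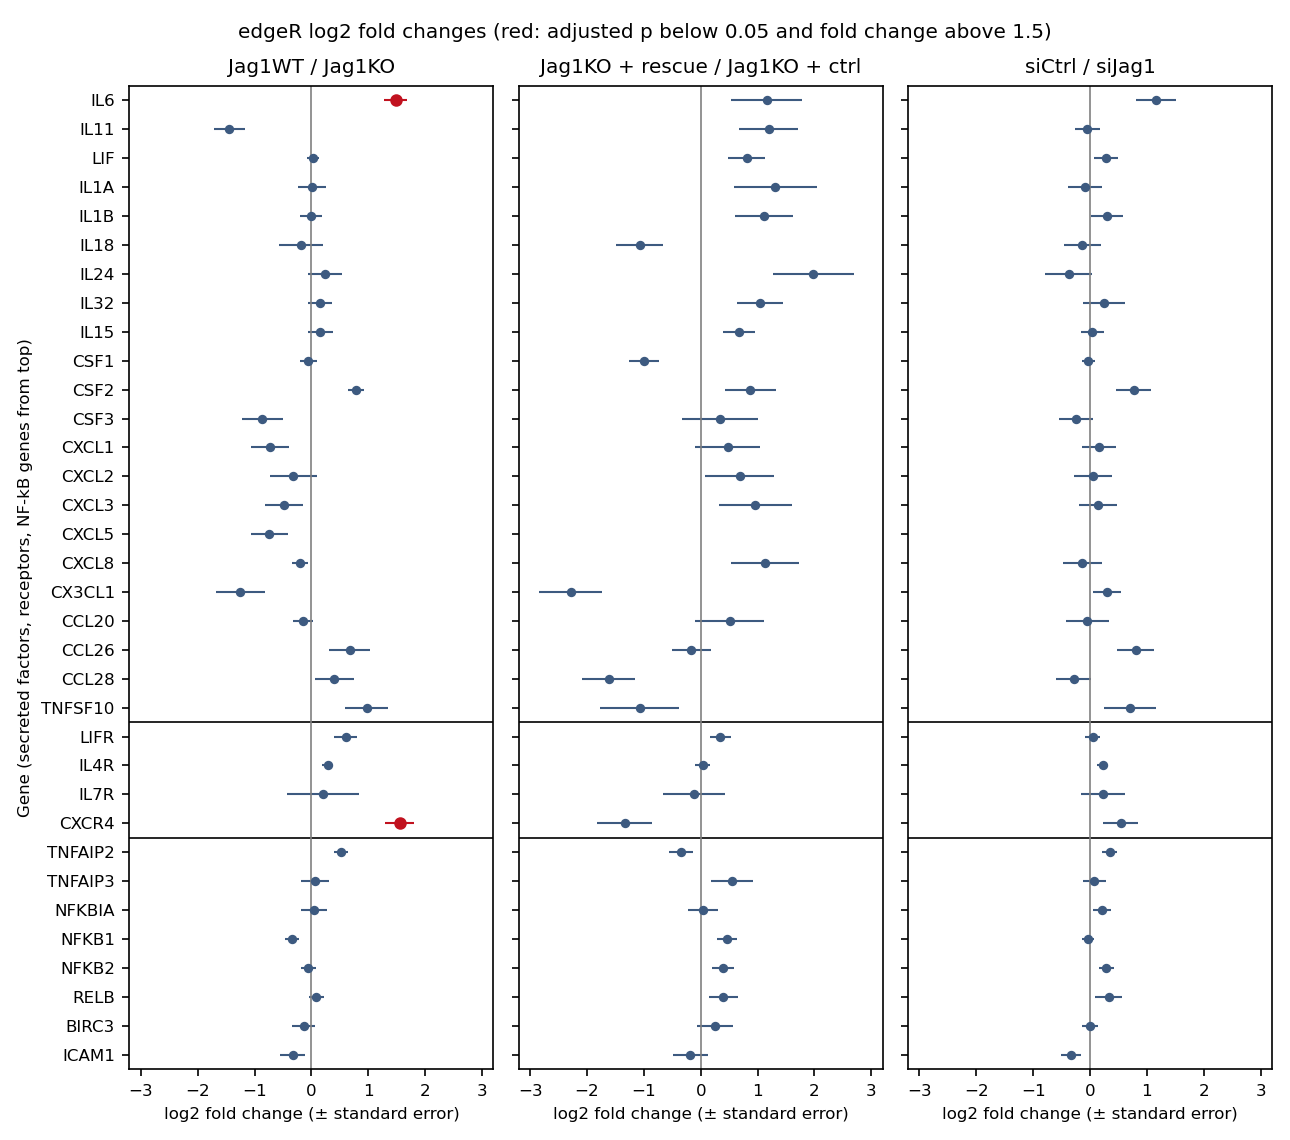
Log2 fold change of each gene in the 3 comparisons from edgeR (points) with its standard error (bars), secreted factors on top, receptors in the middle and NF-kB genes at the bottom, and a gene without a point did not pass the filter. Positive values lie on the side with more JAG1. The 2 red points, IL6 and CXCR4 in Jag1WT against Jag1KO, are the genes called, and the bars in the rescue are wider than in the other panels for most secreted factors.

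Among the IL-6 family, whose members signal through the shared receptor gp130, IL6 had a positive log2 fold change in all 3 comparisons and passed the test in 1 of them. IL6 (Entrez gene 3569, chr7:22725884-22732002, plus strand, hg38) had 142.4, 189.6 and 138.5 CPM in Jag1WT and 41.3, 67.0 and 59.7 CPM in Jag1KO. All 3 Jag1WT libraries lay above all 3 Jag1KO libraries, the ratio of the means was 2.80, and the log2 fold change was 1.48 (standard error 0.204, edgeR adjusted p = 0.0212). With the siRNA, IL6 had 157.3, 191.2 and 241.6 CPM in siCtrl and 100.5, 41.7 and 123.9 CPM in siJag1. These groups did not overlap either, with a ratio of 2.22 and a log2 fold change of 1.16 (standard error 0.356), which did not pass the adjustment over all genes (edgeR adjusted p = 0.969, in a fit without pairing). In the rescue, IL6 had 42.9, 181.3 and 109.3 CPM in Jag1KO + rescue and 50.9, 17.4 and 80.8 CPM in Jag1KO + ctrl. Here the lowest rescue library lay among the control libraries, and the log2 fold change of 1.16 had a standard error of 0.620 (adjusted p = 0.230).

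The IL6 call depended on which libraries were fitted. Of the 6 fits that left out 1 library each, only the one without Jag1KO replicate 1 kept it (beside 335 higher and 600 lower of all genes). Without Jag1WT replicate 1, 2 or 3 or without Jag1KO replicate 2 or 3 the log2 fold change stayed between 1.32 and 1.63 and the adjusted p was 0.0577 to 0.139. Over all genes, these fits called only 1 to 7 higher and 7 to 14 lower, beside 53 and 38 with all 6 libraries. A fit over all 18 libraries gave 1.48 with an adjusted p of 0.368, while it called 83 higher and 65 lower of all genes. The IL6 effects of the 3 comparisons differed from each other by 0.32, 0.34 and 0.02 on the log2 scale, with standard errors of 0.457, 0.725 and 0.810, and none of these differences passed the test (adjusted p of at least 0.812).

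**Figure D3:**
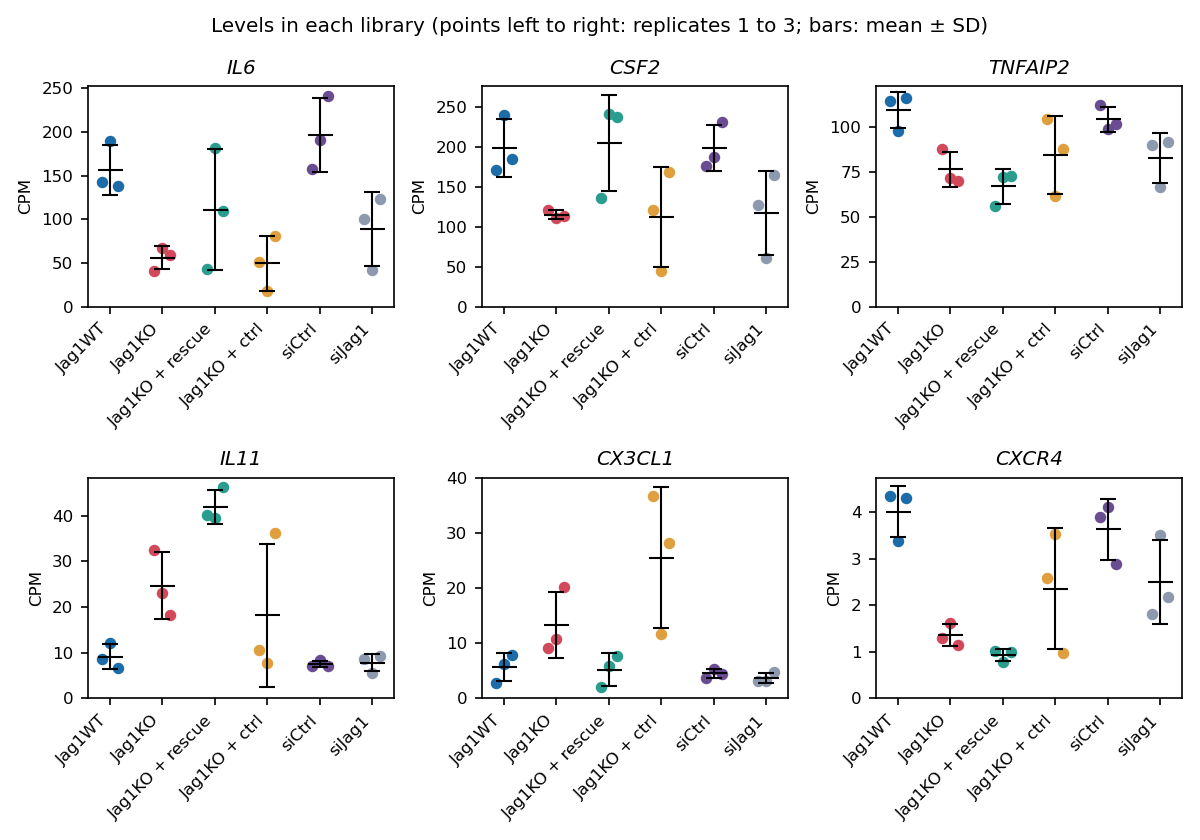
CPM of IL6, CSF2, TNFAIP2, IL11, CX3CL1 and CXCR4 in each library (points, replicates 1 to 3 from left to right in each condition), with the mean and SD of the condition as bars, on linear axes that start at 0. IL6 and CSF2 are higher in all Jag1WT than in all Jag1KO libraries and in all siCtrl than in all siJag1 libraries, IL11 is highest in Jag1KO + rescue, and CXCR4 is low in Jag1KO and in Jag1KO + rescue.

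IL11, another gp130 cytokine, had the opposite sign in Jag1WT against Jag1KO. It had 8.52, 12.2 and 6.72 CPM in Jag1WT and 32.6, 23.2 and 18.2 CPM in Jag1KO, groups that did not overlap, with a log2 fold change of −1.44 (standard error 0.279) and an adjusted p of 0.0759. In Jag1KO + rescue, however, IL11 had its highest levels, with 40.2, 39.5 and 46.3 CPM against 10.7, 7.67 and 36.2 CPM in Jag1KO + ctrl. These groups did not overlap, although Jag1KO + ctrl replicate 3 came close to the rescue libraries, and the log2 fold change was 1.196 (standard error 0.523, adjusted p = 0.165). Parental cells had low IL11 with either siRNA, 7.07, 8.30 and 7.08 CPM in siCtrl and 8.50, 5.62 and 9.23 CPM in siJag1. The difference between the effects in Jag1WT against Jag1KO and in the rescue was −2.62 on the log2 scale (standard error 0.663) and did not pass the test (adjusted p = 0.0737). LIF, which keeps stem cells undifferentiated and acts through LIFR, had close means in Jag1WT and Jag1KO (385.5 ± 38.5 and 376.5 ± 14.2 CPM, mean ± SD) and had 504.6 ± 57.8 CPM in Jag1KO + rescue and 287.2 ± 140.7 CPM in Jag1KO + ctrl (log2 fold change 0.81, adjusted p = 0.147).

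The IL-1 family, the upstream activators of NF-kB in epithelial cells, had log2 fold changes close to 0 in Jag1WT against Jag1KO. IL1B had 1316, 1777 and 1233 CPM in Jag1WT and 1180, 1765 and 1395 CPM in Jag1KO, with a log2 fold change of −0.01 (standard error 0.196, adjusted p = 0.992). IL1A had a log2 fold change of 0.01 (standard error 0.241) and IL18, which is released by inflammasomes, one of −0.18 (standard error 0.382). The spread was larger in the cultures with plasmids. IL1B had 1417, 3371 and 2833 CPM in Jag1KO + rescue and 1089, 487.6 and 1936 CPM in Jag1KO + ctrl, where the groups overlapped (log2 fold change 1.11, standard error 0.508, adjusted p = 0.178). IL1A ranged from 48.3 CPM in Jag1KO + ctrl replicate 2 to 719.0 CPM in Jag1KO + rescue replicate 2.

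Of the other interleukins, IL24, a secreted factor that can induce apoptosis in tumor cells, showed the largest positive log2 fold change of the rescue comparison among these genes. It had 47.3, 63.4 and 47.3 CPM in Jag1KO + rescue and 7.97, 2.58 and 29.2 CPM in Jag1KO + ctrl, groups that did not overlap (log2 fold change 1.98, standard error 0.713, adjusted p = 0.127). Without plasmids IL24 lay at 21.0 ± 8.20 CPM (Jag1WT) and 17.7 ± 3.71 CPM (Jag1KO). IL32, a pro-inflammatory cytokine, had log2 fold changes of 0.15, 1.04 and 0.24 across the 3 comparisons (in the order knockout, rescue, siRNA, as in all such triples), and IL15, which sustains NK and T cells, had 0.16, 0.68 and 0.04, and none of these passed the test (adjusted p of at least 0.139).

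The 3 colony-stimulating factors differed in sign. CSF2 encodes GM-CSF, which acts on granulocytes and macrophages, and had 171.1, 239.4 and 184.6 CPM in Jag1WT and 120.9, 110.8 and 113.5 CPM in Jag1KO. In siCtrl it had 176.2, 187.4 and 230.6 CPM and in siJag1 126.6, 61.0 and 164.7 CPM, so that CSF2, like IL6, did not overlap between groups in both comparisons. Its log2 fold changes were 0.78 (standard error 0.139, adjusted p = 0.0616) and 0.77 (standard error 0.313, adjusted p = 0.969), and neither passed the test. In the rescue CSF2 overlapped, with 135.4, 241.3 and 237.3 CPM against 121.1, 44.8 and 168.8 CPM (log2 fold change 0.87, adjusted p = 0.215).

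CSF1, the macrophage growth factor M-CSF, had close means in Jag1WT (647.8 ± 82.2 CPM), Jag1KO (672.7 ± 99.4 CPM), siCtrl (566.2 ± 23.8 CPM) and siJag1 (582.6 ± 65.1 CPM). It was lower with the Jagged1 plasmid than with the empty one in every library, at 297.0, 510.6 and 498.1 CPM against 1080, 705.8 and 815.3 CPM, with a log2 fold change of −0.998 (standard error 0.258) that did not pass the test in edgeR (adjusted p = 0.105). CSF3, the granulocyte factor G-CSF, had 100.7, 199.7 and 104.1 CPM in Jag1WT and 133.2, 318.5 and 280.1 CPM in Jag1KO, where the groups overlapped (log2 fold change −0.86, adjusted p = 0.550).

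All 5 neutrophil-attracting CXC chemokines that were tested had a negative log2 fold change in Jag1WT against Jag1KO, from −0.20 for CXCL8 to −0.74 for CXCL5, with a median of −0.47 beside −0.01 for all genes, and 0 of 5 passed the test. CXCL8 had 2548, 2809 and 2391 CPM in Jag1WT and 2965, 3367 and 2543 CPM in Jag1KO (standard error 0.144, adjusted p = 0.733). CXCL1 had 159.4, 299.2 and 222.3 CPM in Jag1WT and 208.0, 474.5 and 443.8 CPM in Jag1KO (log2 fold change −0.73, standard error 0.332, adjusted p = 0.580). Between siCtrl and siJag1 the 4 tested chemokines of this group had log2 fold changes of −0.13 to 0.16, and in the rescue of 0.47 to 1.14. CXCL1, CXCL2 and CXCL3 are close copies of each other on chromosome 4, so that counting of uniquely mapped reads may split or lose reads among them and their separate levels are uncertain.

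CXCL8 spread widely between replicates of the plasmid cultures. It had 3339, 6161 and 6311 CPM in Jag1KO + rescue and 2032, 693.1 and 4420 CPM in Jag1KO + ctrl, where the groups overlapped (log2 fold change 1.14, standard error 0.597, adjusted p = 0.223). In siJag1 it ranged from 1287 CPM in replicate 2 to 3855 CPM in replicate 3.

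CX3CL1, the membrane-bound chemokine fractalkine, had 2.84, 6.16 and 7.83 CPM in Jag1WT and 9.07, 10.7 and 20.3 CPM in Jag1KO, groups that did not overlap (log2 fold change −1.25, standard error 0.425, adjusted p = 0.411). With the Jagged1 plasmid it had 1.98, 5.94 and 7.74 CPM against 36.8, 11.6 and 28.2 CPM with the empty one, again without overlap (log2 fold change −2.29, standard error 0.549, adjusted p = 0.104). In siCtrl (4.5 ± 0.756 CPM) and siJag1 (3.69 ± 0.924 CPM) it was low in every library. The sign was thus negative in both comparisons that involve Jag1KO clones and positive (0.30) with the siRNA, and the difference between the siRNA effect and the rescue effect was 2.61 (standard error 0.671), which did not pass the test (adjusted p = 0.105).

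Of the CC chemokines, CCL20, which draws CCR6-positive lymphocytes and is induced by NF-kB, had log2 fold changes of −0.15, 0.51 and −0.05 across the 3 comparisons (adjusted p of at least 0.570). CCL28, a mucosal chemokine, had close means in Jag1WT and Jag1KO (8.17 ± 0.937 and 6.22 ± 2.91 CPM) and had 2.18, 6.36 and 5.22 CPM in Jag1KO + rescue against 18.8, 16.1 and 7.401 CPM in Jag1KO + ctrl, without overlap (log2 fold change −1.62, standard error 0.460, adjusted p = 0.107). CCL26, an eosinophil attractant, stayed between 0.718 and 2.22 CPM in all libraries, close to the filter. TNFSF10, the apoptosis ligand TRAIL, had 3.85, 4.06 and 3.26 CPM in Jag1WT and 0.913, 2.09 and 2.77 CPM in Jag1KO, without overlap (log2 fold change 0.97, standard error 0.380, adjusted p = 0.486). TNFSF10 reached its highest levels in Jag1KO + ctrl replicates 1 and 2 (9.23 and 10.4 CPM), while replicate 3 of that group had 1.32 CPM.

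All 4 receptors had a positive log2 fold change in Jag1WT against Jag1KO, and CXCR4 passed the test. CXCR4 (Entrez gene 7852, chr2:136114349-136119177, minus strand, hg38), the receptor of CXCL12 that guides metastatic breast cancer cells, had 4.36, 3.38 and 4.30 CPM in Jag1WT and 1.31, 1.62 and 1.15 CPM in Jag1KO. The groups did not overlap, the ratio of the means was 2.96, and the log2 fold change was 1.55 (standard error 0.260, edgeR adjusted p = 0.0461). These levels rest on few reads, 69, 45 and 66 in Jag1WT and 20, 21 and 12 in Jag1KO. As for IL6, the call was kept only without Jag1KO replicate 1. Without any other of the 6 libraries the log2 fold change was 1.46 to 1.70 and the adjusted p 0.118 to 0.263, and the fit over all 18 libraries gave an adjusted p of 0.0692. The fits that lost the call by leaving out 1 library called at most 7 genes higher and 14 lower over all genes.

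The Jagged1 plasmid did not go with higher CXCR4. Jag1KO + rescue had 1.02, 0.778 and 0.997 CPM, the lowest mean of all conditions, and Jag1KO + ctrl had 2.58, 3.54 and 0.963 CPM, which overlapped with them through replicate 3 (log2 fold change −1.34, standard error 0.483, adjusted p = 0.128). In siCtrl CXCR4 had 3.89, 4.11 and 2.89 CPM and in siJag1 1.81, 3.52 and 2.17 CPM, also with overlap (log2 fold change 0.54, adjusted p = 0.969). CXCR4 was the 1 gene of 34 for which the effects of Jag1WT against Jag1KO and of the rescue differed (difference 2.91 on the log2 scale, standard error 0.562, edgeR interaction adjusted p = 0.0487), beside 0.545% of all 12850 genes. Leaving out 1 library at a time gave differences of 2.49 to 3.29 and lost the call in 11 of 12 fits, with an adjusted p of at most 0.155. Only the fit without Jag1KO + ctrl replicate 3 kept it, and there 13 of the 34 genes were called, beside 19.8% of all genes. With all 12 libraries the call was also lost with limma (difference 1.80, adjusted p = 0.0509) and in the fit blocked by replicate (2.885, adjusted p = 0.0543). Between Jag1WT against Jag1KO and the siRNA the effects differed for 0 of 34 genes (beside 0.109%), and between the siRNA and the rescue for 0 of 33 (beside 0.0937%).

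LIFR, which pairs with gp130 to bind LIF, had 73.2, 54.7 and 75.7 CPM in Jag1WT and 58.4, 39.1 and 36.4 CPM in Jag1KO, where the groups overlapped (log2 fold change 0.60, standard error 0.202, adjusted p = 0.402). IL4R, the receptor of IL-4 and IL-13, varied little. It had 81.4, 84.0 and 86.7 CPM in Jag1WT and 69.4, 66.2 and 70.3 CPM in Jag1KO, and 82.8, 88.7 and 80.5 CPM in siCtrl and 77.0, 68.7 and 71.3 CPM in siJag1. Neither pair of groups overlapped, and the log2 fold changes of 0.29 (standard error 0.0926, adjusted p = 0.380) and 0.22 (standard error 0.0917, adjusted p = 0.969) did not pass the test. IL7R, which is best known from lymphocytes, had 0.750 to 6.31 CPM over all libraries and overlapped in every comparison.

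Of the 8 NF-kB feedback and target genes, 0 passed the test in any of the 3 comparisons, beside at most 0.41% of all genes called higher and 0.294% called lower. In Jag1WT against Jag1KO 4 had a positive and 4 a negative log2 fold change, and the median was −0.01. NFKBIA encodes IκBα, the inhibitor that NF-kB itself induces, and had 224.9, 367.9 and 212.9 CPM in Jag1WT and 218.9, 314.5 and 248.6 CPM in Jag1KO (log2 fold change 0.04, standard error 0.230, adjusted p = 0.973). TNFAIP3, the deubiquitinase A20 that shuts the pathway off, had log2 fold changes of 0.06, 0.55 and 0.07 across the 3 comparisons, with standard errors of 0.240, 0.375 and 0.200. For both, replicate 2 was the highest library in Jag1WT, Jag1KO, Jag1KO + rescue and siCtrl.

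Of the NF-kB subunits, NFKB1 (p105/p50) had 108.9, 126.9 and 117.6 CPM in Jag1WT and 130.4, 170.5 and 146.3 CPM in Jag1KO, groups that did not overlap (log2 fold change −0.34, standard error 0.127, adjusted p = 0.456). In Jag1KO + rescue it had 157.6, 193.9 and 182.2 CPM against 130.9, 104.3 and 150.7 CPM in Jag1KO + ctrl, also without overlap but with the other sign (log2 fold change 0.46, standard error 0.172, adjusted p = 0.132). NFKB2 (p100/p52) and RELB, which form the noncanonical dimer, had log2 fold changes of −0.05 and 0.09 in Jag1WT against Jag1KO, 0.39 and 0.40 in the rescue and 0.29 and 0.33 with the siRNA. RELB was lowest in siJag1 replicate 2 and Jag1KO + ctrl replicate 2, at 30.8 and 32.4 CPM, and reached 67.4 CPM in Jag1WT replicate 3.

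TNFAIP2, a TNF-induced gene of cell protrusions, had the lowest adjusted p of this group in Jag1WT against Jag1KO. It had 114.7, 98.0 and 116.2 CPM in Jag1WT and 87.9, 71.5 and 70.1 CPM in Jag1KO, and 112.3, 99.1 and 101.5 CPM in siCtrl and 90.02, 66.6 and 91.5 CPM in siJag1. Neither pair overlapped, and the log2 fold changes were 0.51 (standard error 0.123, adjusted p = 0.173) and 0.34 (standard error 0.136, adjusted p = 0.969). The Jagged1 plasmid gave 56.0, 72.0 and 72.9 CPM against 104.7, 61.5 and 87.6 CPM with the empty one, with overlap and a log2 fold change of −0.34 (standard error 0.212). BIRC3, the ubiquitin ligase cIAP2, had log2 fold changes of −0.13, 0.25 and 0.00 in the 3 comparisons. ICAM1, the leukocyte adhesion molecule, had −0.33, −0.18 and −0.34 (standard errors 0.218, 0.311 and 0.175).

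The wider pathway showed few calls, as did all genes, of which 0.41% were called higher and 0.294% lower in Jag1WT against Jag1KO. At such shares, 0 calls in a list of this size say little about the list. Of 30 adaptors and core components of NF-kB signaling, such as RELA, IKBKB, MYD88 and TRAF6, 0 were called in Jag1WT against Jag1KO, the rescue or the siRNA. Of 16 tested further NF-kB targets, 1 was called in Jag1WT against Jag1KO, namely LCN2, the iron-binding lipocalin, with 59.3, 56.8 and 63.2 CPM in Jag1WT and 134.8, 117.3 and 109.4 CPM in Jag1KO (log2 fold change −1.02, standard error 0.110, edgeR adjusted p = 0.0106). This call was lost without any 1 of the Jag1WT replicates (adjusted p of at most 0.0872). Of 22 tested further cytokine and chemokine receptors, 1 was called, IL13RA2, the decoy receptor of IL-13. IL13RA2 had 23.5, 20.5 and 18.9 CPM in Jag1WT and 90.2, 73.3 and 71.4 CPM in Jag1KO (log2 fold change −1.91, standard error 0.138, edgeR adjusted p = 0.00166), and it was called in all 6 fits that left out 1 library.

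IL13RA2 stayed above the parental level with the Jagged1 plasmid, with 140.4, 132.1 and 168.8 CPM in Jag1KO + rescue and 79.5, 69.3 and 141.8 CPM in Jag1KO + ctrl, and it stayed at 18.1 to 31.3 CPM in siCtrl and siJag1. Of 13 tested JAK-STAT genes, including STAT3 and SOCS3 downstream of gp130, 0 were called in any of the 3 comparisons, and the same held for 9 interferon-stimulated genes in Jag1WT against Jag1KO (median log2 fold change −0.26). In the rescue and with the siRNA, 0 genes of the further targets and receptors were called. Over all genes, 1 of 12894 was called in the rescue and 2 of 12823 with the siRNA.

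Proliferation genes, given here because they varied between replicates, spread widely within conditions. A list of 12 proliferation genes, such as MKI67 and TOP2A, had mean log2(CPM + 1) values of 4.42, 5.47 and 4.41 in Jag1WT, 4.40, 6.28 and 6.47 in Jag1KO, 4.44, 5.61 and 4.47 in Jag1KO + rescue, 6.55, 7.08 and 4.76 in Jag1KO + ctrl, 4.57, 5.78 and 4.91 in siCtrl and 4.67, 6.93 and 4.88 in siJag1. Jag1KO + ctrl replicate 2 and siJag1 replicate 2, with the 2 highest proliferation means of all libraries, had the lowest CXCL8, IL6 and RELB of their conditions. In Jag1WT and Jag1KO + rescue, by contrast, replicate 2 had both the highest proliferation mean and the highest IL6. Jag1KO + ctrl replicate 3, low in proliferation genes, had the highest CXCL8, IL6 and IL11 and the lowest CXCR4 of its condition. In Jag1KO + ctrl, siCtrl and siJag1, the library with the highest proliferation mean also had the highest CXCR4. In Jag1WT, Jag1KO and Jag1KO + rescue, that library had the lowest CXCR4. The median log2 fold change of the 12 proliferation genes was −1.25 for the knockout, −1.57 for the rescue and −0.70 for the siRNA, with 12 of 12 negative in each and 1 of them (MCM2, lower) called in the first. The part of this variation in the cytokine values was not tested. Jag1KO replicate 1 had a proliferation mean next to the lowest of Jag1WT. Its IL6 (41.3 CPM) and CXCR4 (1.31 CPM) were below every Jag1WT library, as in every Jag1KO library, because these groups did not overlap. It is a single library, and the part of proliferation in these values was not tested.

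**Figure D4:**
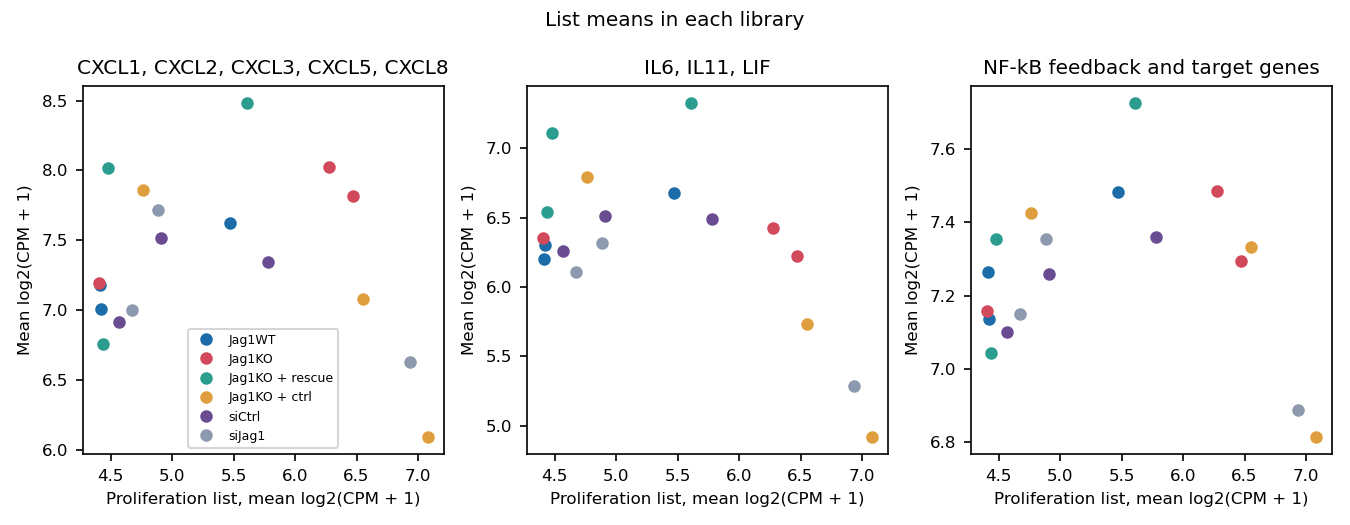
Mean log2(CPM + 1) of the 5 measured neutrophil-attracting CXC chemokines (left), of IL6, IL11 and LIF (middle) and of the 8 NF-kB feedback and target genes (right) against the mean of the 12 proliferation genes, 1 point per library, coloured by condition. Jag1KO + ctrl replicate 2 and siJag1 replicate 2, with proliferation means of 7.08 and 6.93, are the 2 lowest points of the middle and right panels. Points share the library and its depth.

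Of the 6 rescue fits that left out 1 library each, only the one without Jag1KO + ctrl replicate 3 called genes of this group. It called 10 higher in Jag1KO + rescue (IL11, LIF, IL1A, IL1B, IL24, IL32, CXCL8, NFKB1, NFKB2 and RELB) and 5 lower (CSF1, CX3CL1, CCL28, TNFSF10 and CXCR4). Over all 12734 genes, it called 1779 higher (14%) and 1880 lower (14.8%). Without that library the log2 fold change of IL24 went from 1.98 to 3.32 (adjusted p from 0.127 to 0.00403), that of IL11 from 1.196 to 2.19 (0.165 to 0.00284), and that of IL1A from 1.31 to 2.62 (0.245 to 0.00938). CXCL8 went from 1.14 to 1.95 (0.223 to 0.0234) and LIF from 0.81 to 1.27 (0.147 to 0.00562). CX3CL1, at −2.29 and −2.21, moved little while its adjusted p went from 0.104 to 0.0294, and IL6, from 1.16 to 1.71, passed in neither fit (adjusted p = 0.230 and 0.0807). The fit without Jag1KO + ctrl replicate 3 compares 3 rescue libraries with the 2 control libraries in which the proliferation list was highest. The plasmid's cDNA and the state of these cultures cannot be told apart there. Leaving out any other library of the rescue comparison called 0 genes of this group (beside 0 higher and at most 3 lower of all genes). In Jag1WT against Jag1KO the fit without Jag1KO replicate 1 called 5 higher (IL6, CSF2, LIFR, CXCR4 and TNFAIP2) and 4 lower (IL11, CSF3, CXCL1 and CX3CL1), beside 335 higher (2.61%) and 600 lower (4.68%) of all 12827 genes. The 2 Jag1KO libraries left in it had proliferation means of 6.28 and 6.47, beside 4.41 to 5.47 in Jag1WT. The knockout and the state of these cultures cannot be told apart there either. The other 5 fits called 0, beside at most 7 higher and 14 lower of all genes.

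The control comparisons, which set cultures of the same intended JAG1 status against each other and share libraries with those above, called 0 genes. In Jag1KO + ctrl against Jag1KO, edgeR called 0 of 34 in either direction (beside 0% of all genes), and 4 had an unadjusted p below 0.05 (beside 756 of all 13004 genes, 5.81%), 1 of them CXCL5, which passed the filter only through its Jag1KO libraries. DESeq2 called 0 (beside 12 higher and 1 lower of all genes), as did limma (beside 0). In siCtrl against Jag1WT, edgeR called 0 of 34 (beside 0%), 2 had an unadjusted p below 0.05 (CCL28 and ICAM1, both on the lower side, beside 177 of all 12847 genes, 1.38%), and DESeq2 and limma called 0 (beside 0 of all genes). IL6 had log2 fold changes of −0.18 and 0.32 there, with standard errors of 0.480 and 0.172.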

How the data were processed

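Messenger RNA of 18 3D cultures was measured, 3 libraries in each of 6 conditions. The authors prepared stranded mRNA libraries, aligned reads to hg38 and counted uniquely mapped reads per gene, and the submitters' processing notes name featureCounts, edgeR 3.28.0, R 3.6.1 and MultiQC 1.5. The deposited counts are raw (10330581 to 18327890 per library). The 292 rows without a symbol, with at most 0.0442% of the counts, were not removed and met the same filter as all genes. The deposited CPM are a signal that the authors scaled with TMM factors. The deposited RPKM equal, as checked, the CPM of the authors over a fixed length of each gene, and 3 RPKM columns matched no label and were not used. The strand setting of the counting is not given in the sources used here, so that IL4R, IL6, IL18, IL24, IL32, LIF, LIFR, TSLP, CCL5, CXCL5, CXCL10, CXCL11, CXCL16, TNFSF10, BIRC3, TNFAIP2, TNFAIP3 and ICAM1, which genes on the opposite strand overlap, may hold reads of those.

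Counts were tested with the quasi-likelihood test of edgeR 4.0.16 (R 4.3.3, TMM) on all genes that exceeded 1 CPM in 3 or more of the 6 libraries, with Benjamini-Hochberg adjustment. A call needed an adjusted p under 0.05 together with a change of over 1.5 times. Differences of effects were tested as interaction contrasts over 12 libraries (above 1 CPM in at least 6, adjusted p below 0.05). The authors tested with ROTS, which was not used here. The scripts were tested on simulated data. Alternatives were RLE factors, no filter, DESeq2 1.42.0, limma 3.58.1 with a trend on log2(CPM + 1), a replicate block, all 18 libraries in 1 fit, and leaving out each library. For any 1 gene, the smallest two-sided p of an exact permutation test over 3 and 3 libraries is 0.1. Limits set by 3 reads cover counting error only. Coordinates of genes come from GENCODE 44 (hg38) and promoters from RefSeq.

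The genes and lists were chosen with earlier results of these data known. Named were the genes called, the 8 uncalled genes with the highest RPKM in Jag1WT, those below the filter in every comparison, and called genes of the other lists. IL11, LIF, CX3CL1, TNFAIP2 and the other genes given by library were chosen after their values were seen. Replicates of a group were not copies of each other (chi-square per degree of freedom 7.75 to 113). Same-numbered libraries deviated from their group means together between siCtrl and siJag1 (r across genes 0.542, 0.522 and 0.263) and in siCtrl and Jag1WT (0.594, 0.711 and 0.209). This pairing was used only in the replicate block. The main fits had no block, so that the fold changes, standard errors and adjusted p given by gene for the siRNA ignore the pairing, except where the block is named. In the other comparisons at least 1 of the 3 correlations was below 0.1.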

Additional observations from a re-analysis of the deposited data

Results flagged for a closer look

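The effect on CXCR4 differed between Jag1WT against Jag1KO and Jag1KO + rescue against Jag1KO + ctrl by 2.91 on the log2 scale (standard error 0.562, edgeR interaction adjusted p = 0.0487). CXCR4 lay higher in 3 of 3 Jag1WT libraries than in any Jag1KO library, and in 2 of 3 Jag1KO + ctrl libraries it lay above every Jag1KO + rescue library. Those 2, replicates 1 and 2 (2.58 and 3.54 CPM), had proliferation means of 6.55 and 7.08, beside 4.76 in replicate 3 (0.963 CPM). The part of proliferation in this difference was not tested. The call was lost in 11 of 12 fits that left out 1 library, with limma (adjusted p = 0.0509) and in the fit blocked by replicate (adjusted p = 0.0543), and 1 test of this kind was run for each of 34 genes.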

How the results depend on the processing

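In Jag1WT against Jag1KO, RLE factors and limma called the same 2 genes (IL6 and CXCR4). Without a filter on low counts (all genes 90 and 72) and with DESeq2 (116 and 119), CSF2 joined the higher genes (3) and IL11 was lower (1). The fit of all 18 libraries called 0 higher and 0 lower, although it called 83 higher and 65 lower of all genes, beside 53 and 38 in the main fit. With the replicate number as a block, 3 were higher and 4 lower (all genes 145 and 138). Same-numbered libraries of these groups deviated together for replicates 1 and 2 but not for replicate 3 (r across genes 0.632, 0.667 and −0.0136). Whether they were cultured as pairs is not stated. Leaving out 1 library each gave 0 to 5 higher and 0 to 4 lower (all genes 1 to 335 and 7 to 600). In the rescue, where the main counts were 0, DESeq2 called 3 lower, the fit of all 18 libraries 4 higher and 4 lower (all genes 775 and 1381), and leaving out 1 library 0 to 10 higher and 0 to 5 lower. For Jag1KO + ctrl against Jag1KO, leaving out 1 library gave 0 to 1 higher and 0 to 1 lower. The 1 higher (TNFSF10) and 1 lower (IL1A) came without Jag1KO + ctrl replicate 3, beside 113 higher (0.878%) and 189 lower (1.47%) of all 12874 genes. The 1 difference of effects between Jag1WT against Jag1KO and the rescue fell to 0 with limma and with the replicate block, and leaving out 1 library gave 0 to 13 (the 13 beside 19.8% of all genes). Between the siRNA and the rescue leaving out 1 library gave 0 to 7, the 7 again without Jag1KO + ctrl replicate 3 (15.1% of all genes). The causes were not tested. The replicate block, under which siCtrl and siJag1 libraries are paired, left 0 genes of this group called there (beside 4 higher of all genes). It also left 0 called in siCtrl against Jag1WT (beside 1 lower of all genes) and changed no other paired call of this group. JAG1 in siCtrl against siJag1 passed the test in that block (log2 fold change 1.69, adjusted p = 0.0181). No called value changed direction under these alternatives. Over all genes, DESeq2 called 116 higher and 119 lower in Jag1WT against Jag1KO (edgeR 53 and 38) and 590 and 996 in the rescue (edgeR 1 and 0). Depth limits genes such as CXCR4 (11 to 69 reads per library), and the 7 genes below the filter were not tested.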

Other observations

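TNF, the classical NF-kB inducer, stayed below the filter but was not at 0. Its levels ranged from 0.126 CPM (Jag1WT replicate 1) to 1.86 CPM (Jag1KO + ctrl replicate 1), that is at most 31 reads in a library. In Jag1WT, Jag1KO + rescue and siCtrl, replicate 2 held the highest TNF level (1.05, 1.84 and 1.28 CPM), as it did for NFKBIA and TNFAIP3. CXCL16, a scavenger chemokine, had 1.43, 0.990 and 1.23 CPM in Jag1KO + rescue and 0.316 to 0.963 CPM in the other 15 libraries, and it was not tested because it passed the filter in 0 comparisons.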
